A study of Mus musculus with 4 samples.

Results

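The regions described here lie on a 13 Mb window of mouse chromosome 2 (chr2:123000000-136000000, mm10) that holds Gpat2 and its gene-rich surroundings. Peaks of all 4 deposited ATAC-seq lists were merged where they shared at least 1 bp, and every merged region inside the window was kept. This gave 520 of 80380 regions. A central stretch of 3.90 Mb, chr2:127308572-131210774, held 242 of them, the left flank 103 and the right flank 175. The window and the limits of the central stretch were chosen by measured values of these same lists, namely peak strength in CTCF-K20R against WT, so differences between genotypes inside it are a description and carry no test.

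Embryoid bodies are aggregates in which embryonic stem cells begin to differentiate. They were made from E14Tg2A mouse embryonic stem cells, which had been kept on inactivated fibroblast feeders, and were collected on day 4. The WT group carried unaltered CTCF, and in the K20R group lysine 20 of CTCF had been replaced by arginine through CRISPR/Cas9 editing, with 2 libraries in each group. Mutant cells were taken as clones, and the number of clones behind the 2 K20R libraries is not given in the sources used here. A peak list cannot check the point mutation, and the labels do not say that replicates came from separate cultures, although the study describes them as biological replicates from independent experiments. Promoter peaks of the mesoderm genes T, Mesp1, Eomes and Mixl1 and of the pluripotency genes Pou5f1, Nanog and Sox2 were present in all 4 lists. Of the fibroblast genes, Col1a1, Col1a2 and Thy1 had a promoter peak in all 4 lists and Postn in none.

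CTCF is a zinc-finger protein that binds DNA and, with cohesin, helps to set the limits of chromatin loops and domains. ATAC-seq uses the Tn5 transposase to cut DNA where it is accessible, so active promoters and enhancers appear as peaks of reads. Such a peak stands on a local background of reads, which comes from the same library and grows with the number of reads in the wider neighbourhood.

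The lists held 59783 and 66703 peaks in the WT libraries and 51823 and 55832 in the K20R libraries. A region with a peak in every list was called common, and one listed for both replicates of 1 genotype but for no library of the other was called restricted. The lowest −log10 p was 2.00 in both WT lists and 2.02 in both K20R lists, so weak peaks count as listed. The weakest WT-restricted region of the central stretch, chr2:128278682-128278960, had a −log10 q of only 0.80 and 1.06. The deposited fold of a peak is its height over the local background. From fold and p together, the read pileup at the summit and the background were solved for each peak, and the pileups came out as whole numbers within 0.02 for 100% of peaks in every list. Levels were taken relative to the median of the common autosomal regions of the same list, which had a pileup of 38 and 56 reads in WT, and of 39 and 58 reads in K20R. With 2 libraries against 2, an exact permutation test cannot give a p below 0.333.

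Sequences of 200 bp around the summit are shown for the regions on which the description turns, 5′ to 3′ on the plus strand of mm10 with CpG dinucleotides in capitals. The first is the promoter of Gpat2, which encodes a mitochondrial glycerol-3-phosphate acyltransferase best known from germ cells. Then follow the outermost common regions of the central stretch, and the regions next to them outside it, which are the promoters of Stard7 and Mavs.
Gpat2 promoter, chr2:127424973-127425172: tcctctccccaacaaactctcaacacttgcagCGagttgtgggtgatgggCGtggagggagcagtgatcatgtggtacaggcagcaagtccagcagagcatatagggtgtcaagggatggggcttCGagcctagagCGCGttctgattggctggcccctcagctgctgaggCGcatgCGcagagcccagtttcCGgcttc
Just outside on the left, Stard7 promoter, chr2:127270096-127270295: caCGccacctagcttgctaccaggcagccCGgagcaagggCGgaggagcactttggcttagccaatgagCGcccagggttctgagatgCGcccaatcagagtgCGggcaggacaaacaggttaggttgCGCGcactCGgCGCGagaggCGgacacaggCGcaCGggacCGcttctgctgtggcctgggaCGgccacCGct
First common region, intergenic, chr2:127308732-127308931: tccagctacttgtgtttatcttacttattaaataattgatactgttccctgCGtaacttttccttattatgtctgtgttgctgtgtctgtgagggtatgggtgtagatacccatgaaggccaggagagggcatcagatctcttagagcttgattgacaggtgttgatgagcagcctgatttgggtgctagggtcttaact
Last common region, Ap5s1 promoter, chr2:131210108-131210307: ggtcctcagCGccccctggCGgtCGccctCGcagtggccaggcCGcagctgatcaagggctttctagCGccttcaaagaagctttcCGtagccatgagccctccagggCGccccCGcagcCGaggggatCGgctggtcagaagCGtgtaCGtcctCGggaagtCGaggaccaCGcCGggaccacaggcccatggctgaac
Just outside on the right, Mavs promoter, chr2:131233860-131234059: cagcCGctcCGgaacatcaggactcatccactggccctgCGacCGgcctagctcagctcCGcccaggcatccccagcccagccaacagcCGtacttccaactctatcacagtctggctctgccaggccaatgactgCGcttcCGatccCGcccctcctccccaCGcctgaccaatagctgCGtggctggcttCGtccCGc
The 200 bp at the Gpat2 summit held 8 CpG dinucleotides and 59.0% G or C. The first common region held 1 CpG and 43.0% G or C, whereas the promoters of Stard7, Ap5s1 and Mavs held 17, 17 and 13 CpG.

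The central stretch was dense in genes and in accessible regions. It held 71 transcription start sites of protein-coding genes, or 18.2 per Mb, against 8.12 per Mb on the left flank and 5.85 per Mb on the right. Common regions numbered 30.8 per Mb, against 10.9 and 15.5 per Mb on the flanks. Of its 242 regions, 120 were common, 18 were restricted to WT, 12 were restricted to K20R and 92 had another pattern. Promoters, taken as summits within 1000 bp of a start site, made up 53 of the 120 common regions, or 44.2%, compared with 35.5% of all common autosomal regions. Median GC content at the summit was 58.75% in the central stretch and 57% over all common autosomal regions.

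In K20R embryoid bodies the pileup at the summits of the central stretch was about 1.5 times that of WT, and the local background was higher by about as much, so the fold of peak over background was close to that of WT. In the median common region of the stretch, the log2 pileup level was 0.11 and 0.06 in the WT libraries and 0.55 and 0.63 in the K20R libraries. Both K20R medians were thus above both WT medians, and the replicates of each genotype lay close together. The median K20R minus WT difference in log2 pileup was 0.56, with an interquartile range over regions of 0.23 to 0.77, whereas over all common autosomal regions it was 0.08. This is a ratio of 1.48, or 1.40 relative to the rest of the genome.

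Region by region, 92 of the 120 common regions had a pileup level above both WT libraries in both K20R libraries, and 7 had the opposite order. Over all 37692 common autosomal regions these orders held for 35.9% and 23.7%. The limits were selected on peak strength, so these counts show the extent of the selected pattern and are no independent support for it.

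The local background could be compared in the 94 common regions of the stretch where it lay above the lowest level of its list in all 4 lists. Its median log2 level was 0.02 and 0.05 in the WT libraries, beside 0.46 and 0.50 in the K20R libraries. The median difference was 0.54, a ratio of 1.45, and K20R lay above WT without overlap in 78 of 94 regions, where 29.9% of all such regions did so. Background and summit were both solved from the same fold and p. With the fold close to that of WT, a higher summit implies a higher background, so the background is not a separate observation. What moved both was not tested, and the DNA content of the cells was not analysed here.

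The deposited fold, which divides the summit by that background, gave another picture. Median log2 fold levels of the central stretch were 0.05 and 0.01 in the WT libraries and 0.12 in each K20R library. The median difference was 0.04 with an interquartile range of −0.14 to 0.22. K20R lay above WT without overlap in 31 of 120 regions, where 21.2% of all common autosomal regions did so, and below it in 25, where the share was 21.7%. On this scale the stretch was close to the genome. The deposited −log10 p grows with the number of reads as well as with the fold. Its median log2 difference was 0.49, and 76 of 120 regions were higher in both K20R libraries, against 31.1% of all common autosomal regions.

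**Figure D1:**
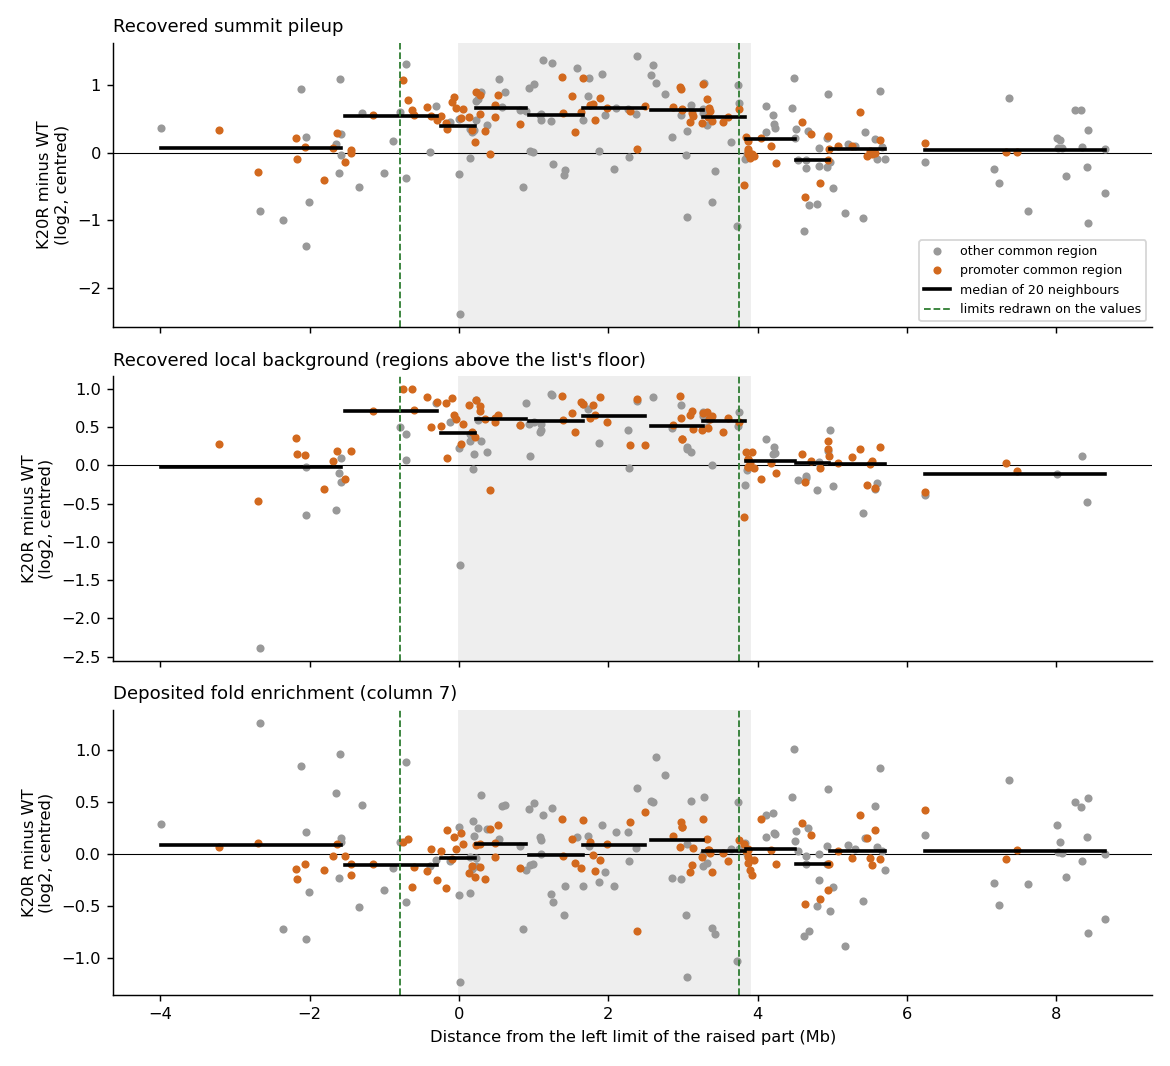
K20R minus WT difference (log2, mean of 2 libraries minus mean of 2 libraries, each centred on its list's median) of summit pileup, local background and fold for each common region, plotted against the distance in Mb from the left limit of the central stretch (grey). Black bars are medians of 20 neighbouring common regions and dashed lines the limits redrawn on the values. The medians of pileup and background are raised between the dashed lines and those of the fold stay near 0 throughout. Single regions scatter around them, with log2 fold differences in the central stretch from −1.23 to 0.93.

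The flanks differed from each other. On the right flank the median log2 pileup difference was 0.07, with 25 of 74 common regions higher in both K20R libraries and 19 lower. On the left flank it was 0.29, with 24 of 47 higher and 8 lower. Over all common autosomal regions, 35.9% were higher and 23.7% lower, and the right flank, with 33.8% and 25.7%, was close to these shares. The median log2 fold difference was 0.03 on the right flank and −0.05 on the left. The left flank thus shared part of the pileup pattern, although it lay outside the limits.

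Medians of consecutive groups of 20 common regions showed where this came from. The first group, chr2:123311979-125732651, had a log2 pileup difference of 0.08. The second, chr2:125782144-127009407, already had 0.55. Across the next groups the medians ran 0.40, 0.66, 0.56, 0.66, 0.63 and 0.53. They were then 0.20 in the group that began at chr2:131159461 and −0.11, 0.05 and 0.04 beyond it. The medians of the fold difference in the same groups ranged only from −0.11 to 0.13, with no group standing apart.

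Seen after the values, the raised pileups began 0.787 Mb to the left of the given limit and ended 0.147 Mb before the given right limit, and limits of chr2:126521587-131064019 described them more closely. This redrawn stretch of 4.54 Mb held 130 common regions. Its median log2 pileup difference was 0.58, and 107 regions were higher in both K20R libraries and 7 lower. At the 111 common regions of the window outside it, the median difference was 0.06, with 34 higher and 27 lower. Over all common autosomal regions, 35.9% were higher and 23.7% lower. The redrawn limits were drawn from the same values, so their closer description was built in.

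Sequences are shown for promoters at both redrawn ends. The right limit is the end of the Adam33 promoter region, and Hspa12b is the next common region outside. The left limit, chr2:126521587, is the start of the common region just left of Slc27a2, whose promoter region starts at 126552177. Slc27a2 encodes a very-long-chain acyl-CoA synthetase that also takes up fatty acids, Adam33 a membrane-bound metalloprotease and Hspa12b a distant member of the HSP70 family. CpG dinucleotides are again in capitals, and these 3 promoters were chosen after their values were seen.
Slc27a2 promoter, inside on the left, chr2:126552942-126553141: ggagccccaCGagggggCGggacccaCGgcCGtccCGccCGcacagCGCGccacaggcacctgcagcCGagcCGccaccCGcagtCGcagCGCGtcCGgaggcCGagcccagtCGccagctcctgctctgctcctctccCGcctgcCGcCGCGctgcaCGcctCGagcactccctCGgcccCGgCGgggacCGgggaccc
Adam33 promoter, inside on the right, chr2:131063470-131063669: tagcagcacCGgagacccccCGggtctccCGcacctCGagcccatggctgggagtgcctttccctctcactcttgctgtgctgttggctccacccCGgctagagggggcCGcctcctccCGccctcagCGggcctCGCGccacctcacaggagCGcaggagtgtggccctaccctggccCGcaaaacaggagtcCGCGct
Hspa12b promoter, outside on the right, chr2:131127231-131127430: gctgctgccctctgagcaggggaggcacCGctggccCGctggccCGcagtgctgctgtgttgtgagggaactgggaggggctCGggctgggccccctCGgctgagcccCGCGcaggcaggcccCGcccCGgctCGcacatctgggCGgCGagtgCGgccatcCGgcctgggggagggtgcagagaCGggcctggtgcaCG
All 3 were rich in CpG, with 27, 14 and 16 of them in 200 bp.

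In the text that follows, pileups of single promoters are given relative to the list's median, on a linear scale, for WT replicates 1 and 2 and then K20R replicates 1 and 2. The ratio is the mean of the K20R values over that of the WT values. The Slc27a2 promoter had relative pileups of 1.58, 1.25, 2.90 and 3.03, a ratio of 2.10. Going left from there, the shared promoter of Dtwd1 and Fam227b had 1.89, 2.00, 2.74 and 2.98, a ratio of 1.47. That promoter thus lay outside the redrawn limits with values like those inside. An intron region of Atp8b4 and an intergenic region at chr2:126303109-126303654 stood between it and the stretch with ratios of 1.11 and 0.84. Farther left, the shared promoter of Cops2, a subunit of the COP9 signalosome, and Galk2 had 2.26, 2.50, 2.23 and 2.50, with no separation of the genotypes. The left end was therefore less sharp than the right.

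At the right end the Adam33 promoter had relative pileups of 0.79, 0.96, 1.26 and 1.48, a ratio of 1.56. The Hspa12b promoter, the next common region, had 2.24, 2.30, 1.51 and 1.76, a ratio of 0.72, with both K20R values below both WT values. The order of the genotypes thus turned between 2 neighbouring promoters. The common regions between the redrawn end and the given limit numbered 9, at Hspa12b, 1700037H04Rik, Spef1, Cenpb, Cdc25b and Ap5s1. Their median log2 pileup difference was −0.02, with 1 higher and 1 lower, beside 35.9% and 23.7% of all common autosomal regions.

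At the given limits themselves, the common region just inside on the left had relative pileups of 0.47, 0.66, 0.87 and 0.72, and the Stard7 promoter just outside had 2.53, 3.11, 4.21 and 4.71. Stard7 carries phosphatidylcholine to mitochondria. The ratios, 1.41 inside and 1.58 outside, showed no step there. On the right, the Ap5s1 promoter just inside had a ratio of 0.94 and the Mavs promoter just outside 0.99, again with no step.

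**Figure D2:**
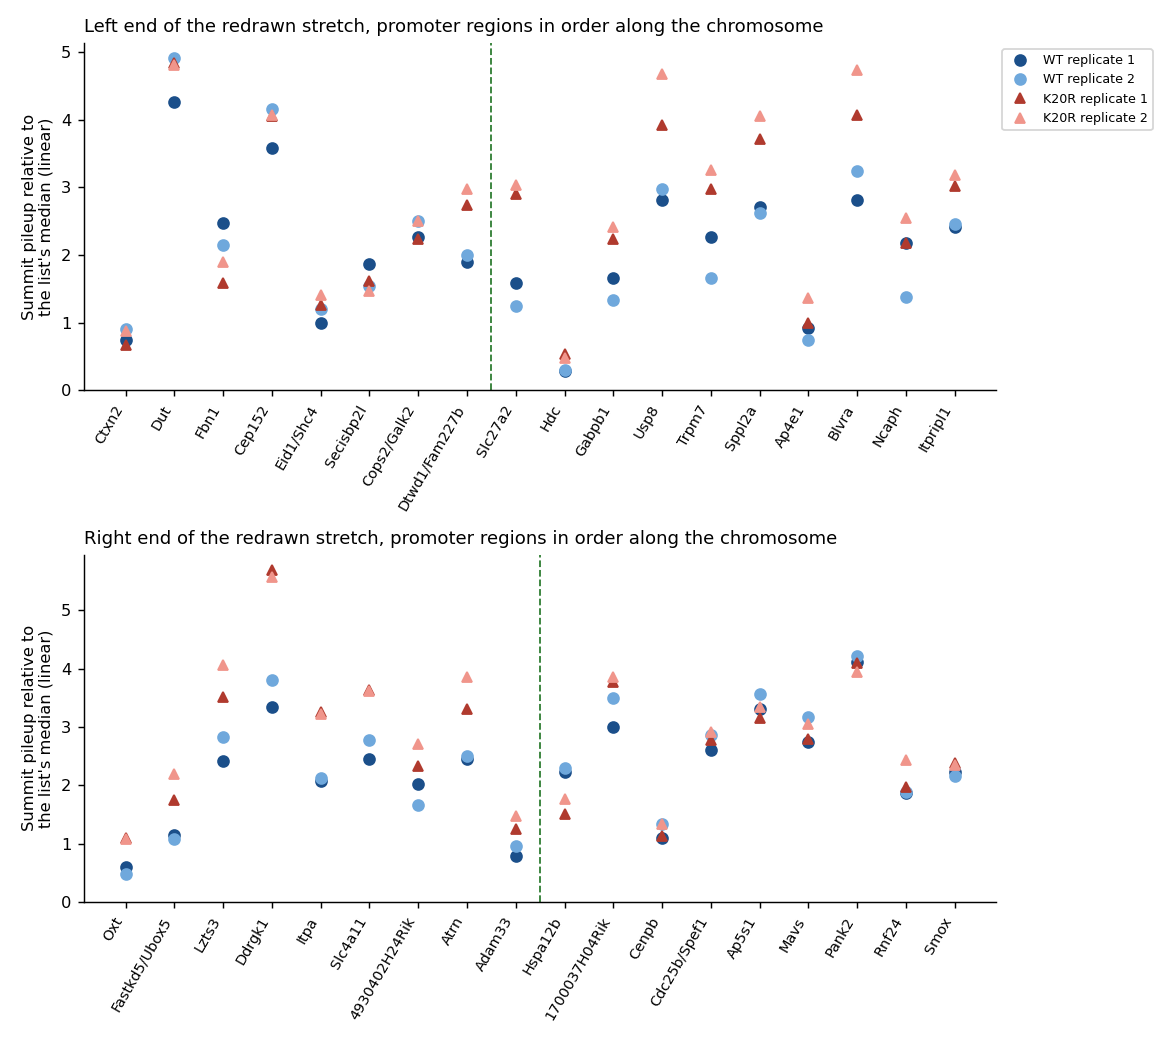
Summit pileup relative to the list's median (linear scale) at promoter regions in their order along the chromosome, for the 4 libraries, around both ends of the redrawn stretch (dashed line). On the inner side of each line the K20R triangles lie above the WT circles, except at Ncaph, where 1 K20R value is no higher than 1 WT value. On the outer side the order changes from promoter to promoter, with K20R higher at Dtwd1/Fam227b and lower at Fbn1 and Hspa12b.

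Promoters scattered less than other regions, in the stretch as over the genome. In the central stretch the interquartile range of the log2 pileup difference was 0.43 to 0.71 at promoters and 0.02 to 0.85 elsewhere. Over all common autosomal regions it was −0.05 to 0.26 at promoters and −0.31 to 0.36 elsewhere. Of the 53 common promoter regions in the central stretch as given, 45 had higher pileups in both K20R libraries and 1 had lower, beside 40.9% higher among all common autosomal promoters. Their median log2 pileup difference was 0.58, whereas promoters of the right flank had 0.02. In the redrawn stretch 56 of 59 promoter regions were higher and 0 were lower. Those that overlapped between genotypes were Ncaph, Mall and Pdyn. The background at promoters of the redrawn stretch was higher in K20R in 57 of 58 regions, beside 33.6% of all autosomal promoters. Regions away from promoters in the redrawn stretch had a median log2 pileup difference of 0.56. Of these, 51 of 71 were higher, beside 33.1% of all common autosomal regions away from promoters.

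**Figure D3:**
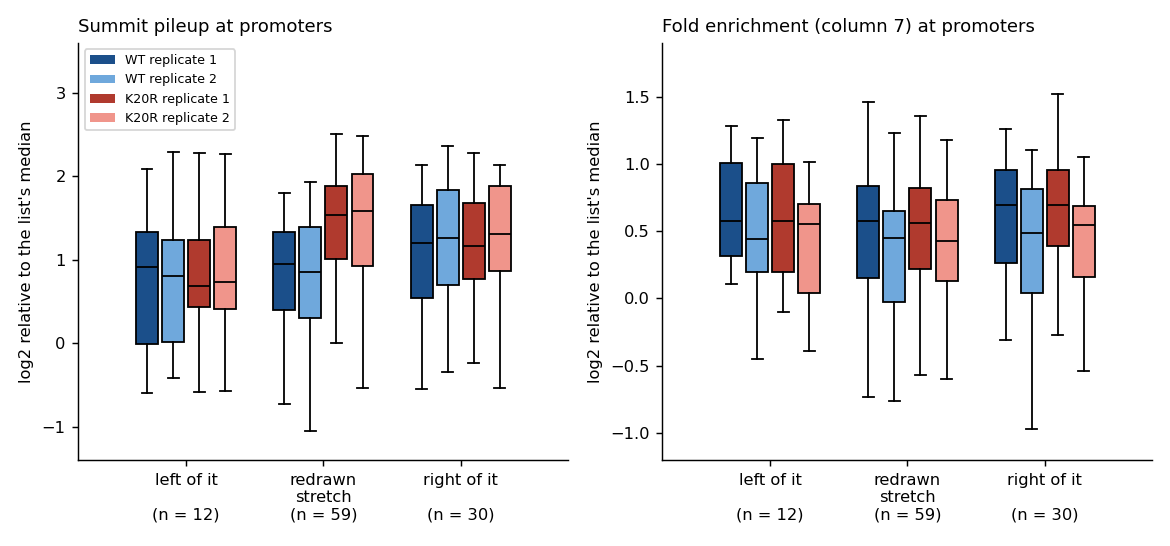
Levels at common promoter regions (log2 relative to the list's median) in each library, left of, inside and right of the redrawn stretch; boxes give the median and quartiles and whiskers reach the last region within 1.5 interquartile ranges. Inside the stretch the median pileup levels of the WT libraries were 0.94 and 0.85 and those of the K20R libraries 1.53 and 1.58, while the fold levels of the genotypes overlap in all 3 places.

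Counts of listed genes below stand beside the 40.9% of all common autosomal promoters that were higher in pileup in both K20R libraries and the 17.2% that were higher in fold, and beside the 45 of 53 in the stretch that were higher in pileup. With so few genes in each list, they say nothing particular to a list. Genes of the cell cycle and mitosis lay in all parts of the window. Of the 5 in the central stretch with a common promoter region, 3 had higher pileups in both K20R libraries, where 40.9% of all promoters did. Bub1, a kinase of the spindle checkpoint, had relative pileups of 1.21, 0.95, 2.00 and 1.88, a ratio of 1.80. Anapc1, a subunit of the anaphase-promoting complex, had 0.89, 0.89, 2.03 and 1.88, and at 2.18 the ratio was above that of any other listed gene. In both, the K20R values lay well clear of the WT values. The fold was also higher at these promoters, with K20R to WT ratios of 1.20 and 1.26. Ckap2l, a protein of the mitotic spindle, had 2.71, 3.18, 4.59 and 4.67, a ratio of 1.57. The 2 others, the centromere protein gene Cenpb and the Cdk-activating phosphatase gene Cdc25b, lay beyond the redrawn end, and their ratios were 1.01 and 1.04. On the right flank Pcna, the sliding clamp of DNA replication, had a ratio of 1.18 and Mcm8, a helicase of recombination repair, 1.02. On the left flank Cep152, a centriole duplication gene, had 1.05 and the condensin gene Ncaph 1.33.

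Genes of RNA processing, ribosomes and transcription lay inside the stretch with higher pileups. Each of the 9 with a common promoter region in the central stretch had higher pileups in both K20R libraries, with ratios from 1.36 to 2.14, against 40.9% of all promoters. A higher fold was seen in 2 of the 9, against 17.2% of all promoters. Zc3h6, a zinc-finger gene, had relative pileups of 1.63, 1.38, 3.10 and 3.33. Nop56, a core protein of box C/D small nucleolar ribonucleoproteins, had 2.05, 2.30, 4.44 and 4.09, a ratio of 1.96. Its background was about 10.0 and 12.3 reads in WT and 20.5 and 25.3 reads in K20R, and its fold ratio was 1.05. Nop56 thus stood higher on a background that was higher by about as much. Polr1b, a subunit of RNA polymerase I, had a pileup ratio of 1.64, Snrpb, a core protein of spliceosomal particles, 1.61, and the mitochondrial ribosome genes Mrps5 and Mrps26 had 1.80 and 1.36. The 2 listed genes on the left flank, Gabpb1, a subunit of the transcription factor GABP, and Snrnp200, a helicase of the spliceosome, lay inside the redrawn limits and had ratios of 1.55 and 1.68.

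Genes of metabolism and mitochondria lay on both sides of the left end. All 4 with a common promoter region in the central stretch were higher in K20R, against 40.9% of all promoters, namely Fahd2a with 1.44, Chchd5 with 1.40, Idh3b with 1.93 and Itpa with 1.54. Idh3b, a subunit of the isocitrate dehydrogenase of the citric acid cycle, had relative pileups of 1.16, 1.23, 2.21 and 2.40. On the left flank, Slc27a2, Stard7 and Ciao1, a gene of iron-sulphur protein assembly with a ratio of 1.76, lay inside the redrawn limits. Dut, the dUTPase, and Galk2 lay farther left with 1.05 and 0.99. On the right flank Pank2, which starts coenzyme A synthesis, had 0.97 and Smox, the spermine oxidase, 1.08.

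Among genes of signalling, 7 of 8 in the central stretch were higher in both K20R libraries in pileup and 4 of 8 in fold, where 40.9% and 17.2% of all promoters were. Mertk, a receptor tyrosine kinase used in the uptake of dead cells, had relative pileups of 2.82, 3.38, 4.23 and 5.03, a ratio of 1.50. Oxt, which encodes oxytocin, had low pileups of 0.61, 0.48, 1.10 and 1.09, a ratio of 2.01. Stk35, a kinase gene, and Sirpa, the receptor for CD47, had ratios of 1.62 and 1.52 and a higher fold in both K20R libraries, as Oxt and Dusp2 did. Pdyn, the gene of prodynorphin, was the member that did not follow. Its promoter had relative pileups of 0.63, 0.62, 0.62 and 0.69, while the background under it was 4.81 and 5.42 reads in WT and 8.83 and 11.7 reads in K20R. The fold ratio was accordingly 0.60, with both K20R libraries below WT. On the right flank Bmp2, a growth factor of the TGF-beta family, had a pileup ratio of 1.10, Plcb1, a phospholipase C, 1.00, and Prnp, the prion protein gene, 1.37. On the left flank Sema6d, a semaphorin gene, had 0.82, with both K20R values below both WT values, Shc4 had 1.22, and Tmem127, inside the redrawn limits, had 1.76.

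All 5 genes of membrane, transport and matrix in the stretch were higher in K20R in pileup and 0 of 5 in fold, where 40.9% and 17.2% of all promoters were. Slc20a1, a phosphate transporter, had relative pileups of 2.58, 2.80, 4.36 and 5.07, a ratio of 1.75. Prom2 had 1.84, Kcnip3 1.27, Mal 1.24 and Fbln7 1.24. Bcl2l11, which encodes the cell death protein BIM, had 3.08, 3.36, 4.18 and 4.48, a ratio of 1.35, and a fold ratio of 0.91. On the left flank, inside the redrawn limits, Usp8 had 1.48 and the channel gene Trpm7 1.59. Outside them Fbn1, the fibrillin gene, had 0.76, the vitamin C transporter gene Slc23a2 0.74 and Fermt1, which encodes an integrin adaptor, 1.13.

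Promoters with strong peaks were among those that were higher. The 10 promoter regions of the central stretch with the highest mean percentile of −log10 p were those of Mrps26, Ckap2l, Ddrgk1, Chchd5, Ap5s1, Slc20a1, 1700037H04Rik, Atrn, Mertk and Kcnip3. Of these, Ap5s1 and 1700037H04Rik lay beyond the redrawn end, with pileup ratios of 0.94 and 1.17. The other 8 lay inside, with ratios from 1.27 for Kcnip3 to 1.75 for Slc20a1. Their fold ratios ran from 0.88 at Chchd5 to 1.07 at Ckap2l. Mall, a MAL family gene, was beside Ncaph and Pdyn a promoter inside that overlapped between genotypes, with relative pileups of 1.39, 1.30, 1.33 and 1.33 and a background of 7.05 and 9.76 reads in WT and 6.62 and 7.91 reads in K20R.

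Single regions departed from the stretch in their fold. The common region of the central stretch with the largest difference in log2 fold was intergenic, chr2:129947463-129948444, at 0.93. Another intergenic region, chr2:130068109-130068740, followed with 0.76 and an intron region of Pdyn, chr2:129695730-129696563, with 0.64. Both intergenic regions had weak peaks in WT. The first stood at the 30.6 and 14.1 percentile in WT and the 61.6 and 44.2 percentile in K20R. The other stood at the 11.4 and 17.5 percentile in WT and the 35.2 and 46.0 percentile in K20R. The Pdyn intron region had relative pileups of 0.89, 0.80, 2.36 and 2.24, which sets it apart from the promoter of the same gene. The smallest was the intergenic region chr2:127323508-127324815 at −1.23. Here the pileup itself was lower, with 55 and 100 reads in WT and 14 and 15 reads in K20R, and the background was 8.11 and 11.5 reads in WT, against 4.97 and 3.67 reads in K20R. An Ebf4 intron region followed with a log2 fold difference of −1.19 and an Atrn exon region with −1.03. These regions were lower in K20R although they lay inside a stretch of higher pileups.

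Gpat2 itself was in the lists of the K20R libraries only. Its promoter region, chr2:127424773-127425718, had a pileup of 74 and 83 reads, a fold of 8.51 and 10.1 and a −log10 p of 45.8 and 56.9. These peaks stood at the 84.2 and 78.3 percentile of their lists. Among the 12 K20R-restricted regions of the central stretch it was the strongest, and the next, the intergenic chr2:130291410-130291751, reached 44.7 and 45.2. It was also the only promoter among the 12.

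The lists are not complete, and this bears on Gpat2. Peak numbers run along each list with gaps, and in the central stretch the 4 lists held 59.7%, 59.6%, 53.1% and 58.6% of the numbers. Each WT list lacked 1 number between its deposited peaks on both sides of the Gpat2 promoter, at distances of 5407 and 4645 bp in replicate 1 and 5234 and 4514 bp in replicate 2. A peak that was called and then removed cannot be told apart from a region without one. Of the 12 K20R-restricted regions, 3 had no missing number around them in the WT lists, and of the 18 WT-restricted regions 5 had none in the K20R lists. These 5 included the promoter of Lzts3, that of Astl, an egg metalloprotease, and the strongest of the 18, chr2:129231963-129232997, at the 63.9 and 66.6 percentile.

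The regions next to Gpat2 differed in direction. The intergenic region to its left, chr2:127418234-127419539, stood at the 64.1 and 64.8 percentile in WT, at the 3.94 percentile in K20R replicate 2, and had no deposited peak in K20R replicate 1, whose list lacks 3 numbers around Gpat2. The Fahd2a promoter to its right stood at the 83.6, 85.9, 84.0 and 89.3 percentile, with a pileup ratio of 1.44, and the Adra2b promoter on the other side had a ratio of 1.57. Of the regions of the central stretch, 7.44% were WT-restricted and 4.96% K20R-restricted, against 10.4% and 3.10% in the whole series. The order turned when the same number of strongest peaks was taken from each list, which left 12 WT-restricted and 20 K20R-restricted regions in the stretch. It also turned without K20R replicate 1, with 22 WT-restricted and 26 K20R-restricted regions. The whole series was not counted under these settings, so the turn cannot be called particular to the stretch.

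**Figure D4:**
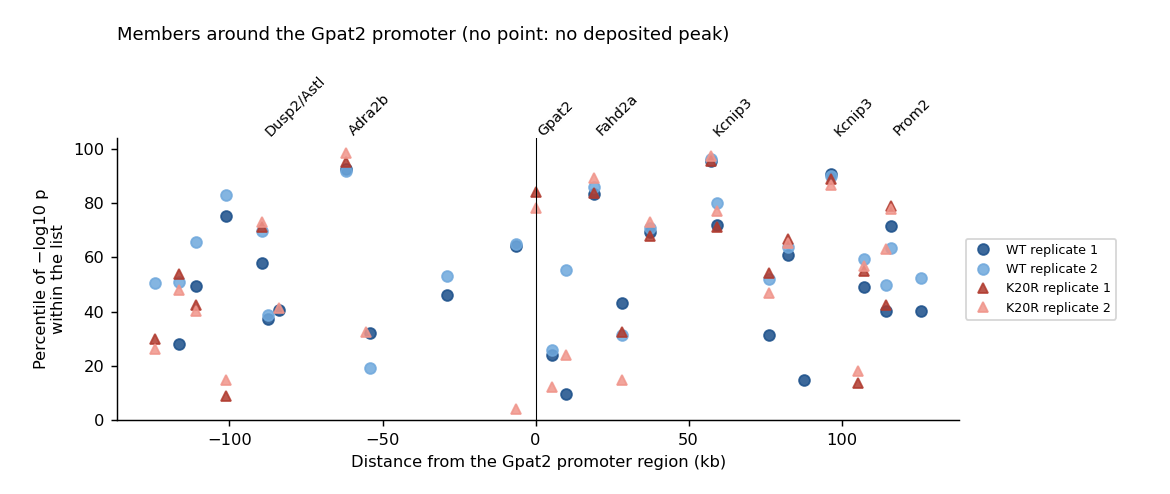
Percentile of −log10 p within each list for the members within 130 kb of the Gpat2 promoter region, against the distance from it in kb; a library without a deposited peak has no point. At 0 kb the K20R triangles stand at 84.2 and 78.3 with no WT circle, and the Adra2b and Fahd2a promoters on either side have points from all 4 libraries.

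Since the mutation was in CTCF, the CTCF consensus was searched for within 100 bp of the strongest summit. It was written as 1 short pattern and read on both strands without mismatches. It was found in 5 of the 120 common regions of the central stretch, or 4.17%, in 1 of 47 on the left flank and in 8 of 74 on the right, compared with 7.19% of all common autosomal regions. The 4 regions of the central stretch with the highest percentiles are shown with the consensus match in capitals.
Kcnip3 intron, chr2:127507168-127507367: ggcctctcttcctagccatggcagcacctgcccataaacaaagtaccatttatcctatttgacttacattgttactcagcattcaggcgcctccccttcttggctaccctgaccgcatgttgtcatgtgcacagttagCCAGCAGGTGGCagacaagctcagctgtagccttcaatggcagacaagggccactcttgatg
Intergenic, chr2:129408515-129408714: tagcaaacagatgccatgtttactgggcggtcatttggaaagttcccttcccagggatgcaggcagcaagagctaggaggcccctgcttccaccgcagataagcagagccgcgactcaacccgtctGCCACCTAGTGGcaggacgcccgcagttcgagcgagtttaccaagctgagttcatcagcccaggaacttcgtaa
Intergenic, chr2:129258850-129259049: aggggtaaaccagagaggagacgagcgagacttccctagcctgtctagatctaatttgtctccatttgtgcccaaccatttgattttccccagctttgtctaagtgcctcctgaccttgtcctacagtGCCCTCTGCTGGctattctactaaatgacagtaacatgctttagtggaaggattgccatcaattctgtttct
Acoxl intron, chr2:127889452-127889651: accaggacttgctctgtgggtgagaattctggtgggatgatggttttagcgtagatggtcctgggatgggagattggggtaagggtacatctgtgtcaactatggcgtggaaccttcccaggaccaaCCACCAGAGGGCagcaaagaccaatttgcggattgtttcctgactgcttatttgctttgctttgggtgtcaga
The match lay on the plus strand in the Kcnip3 and Acoxl introns and on the minus strand in both intergenic regions. A match of letters is not a measured CTCF site, and CTCF-like sequences that depart from the pattern were not counted.

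Regions with the consensus differed between the parts of the window. The 5 in the central stretch had a median log2 pileup difference of 0.56, with 4 higher in both K20R libraries and 0 lower. The median over all 120 common regions of the stretch was also 0.56, with 92 higher and 7 lower. These 5 thus matched the stretch around them. Over all 2711 common autosomal regions with the consensus the median was 0.11, with 34.8% higher and 17.1% lower. The 8 on the right flank had −0.16, with 1 higher and 3 lower, whereas the whole right flank had 0.07. The 1 on the left flank, in an Atp8b4 intron, had 0.18 and overlapped between genotypes. The Kcnip3 intron region shown first had relative pileups of 0.84, 0.79, 1.15 and 0.91, a ratio of 1.27. The intergenic region chr2:129407992-129409031 had 0.66, 0.52, 0.92 and 0.93, a ratio of 1.58. Their fold ratios were 1.12 and 1.16.

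Leaving out each library in turn left the median log2 pileup difference of the central stretch between 0.50 and 0.55. On the left flank it ranged from 0.17 to 0.31 and on the right flank from −0.03 to 0.07. The limits were chosen on these same lists and kept, so a raised stretch was largely built in and is no independent support. The number of common regions of the stretch with K20R above WT was then 95 to 101 of 122 to 132, beside 42.1% to 46.3% of all common autosomal regions.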

How the data were processed

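ATAC-seq peak lists of 2 WT and 2 CTCF-K20R libraries of day 4 embryoid bodies were analysed. Groups and replicate numbers came from the sample labels. According to the study's methods, reads were trimmed with Trim Galore and aligned to mm10 with Bowtie2, low-quality, duplicate and blacklisted reads were removed, and MACS2 gave 1 list per library. The score deposited by the authors is 10 times the −log10 p as a whole number. The deposited fold is the ratio of summit pileup to local background. The authors' −log10 p-value and q-value are those of the summit. Read depth was not used here.

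Peaks sharing at least 1 bp were merged. The fold was read as (pileup + 1)/(background + 1) and p as a Poisson upper tail, and both were solved for pileup and background. The solution was tested on simulated data. Background within 1.1 times the list's floor, the 1 percentile of its peaks, was left out. Levels are log2 values relative to the median of common autosomal regions in the same list. Regions were annotated with GENCODE M21 by their strongest summit, and sequence was read from GRCm38. Named genes were listed genes with a common promoter region, the 10 strongest promoters, those next to each limit, the 5 largest and 5 smallest differences, and the strongest restricted regions. Members and gene lists were chosen with earlier results of these data known. Python 3.11.15, numpy 2.4.6, pandas 2.3.3 and scipy 1.17.1 were used. Alternatives were the other deposited columns, pileup, centring, filters, overlap, each library left out and a replicate block.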

Additional observations from a re-analysis of the deposited data

How the results depend on the processing

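All differences below are K20R minus WT medians, on the log2 scale unless given as percentile points, and the deposited fold is the measure unless another is named. In place of the fold, the −log10 p gave 0.49 in the central stretch, 0.32 on the left flank, 0.43 for the stretch minus the flanks and 76 regions with K20R above WT. Its percentile gave 7.61, 4.33 and 6.12 points, 75 regions and 0.74 points on the right flank, and the recovered pileup gave 0.56, 0.29, 0.46 and 92 regions. The pileup is not divided by the local background, while the −log10 p is taken against that background and grows with the number of reads as well as with the fold. Over all common autosomal regions, K20R lay above WT in 31.1% by −log10 p, 29.4% by its percentile and 35.9% by pileup. Limits redrawn on the values, chosen after seeing the data, gave 0.58 and 107 regions in pileup. In fold, centring on all peaks gave −0.02 in the stretch, −0.11 on the left and −0.04 on the right flank, and centring on the rest of chromosome 2 gave 0.07 in the stretch. The medians over all common autosomal regions were then −0.06 and 0.03. Keeping only a −log10 q from 10 upwards gave 0.06, a difference from the flanks of 0.11 and 20 of 77 regions, beside 19.4% of such common autosomal regions. Regions without promoters gave 0.08 in the stretch, 0.06 on the left flank and 0.00 for the stretch minus the flanks. Without each library in turn, the fold difference ranged from −0.02 to 0.07 in the stretch, −0.10 to 0.05 on the left, −0.04 to 0.11 on the right and −0.02 to 0.06 between stretch and flanks, with 45 to 59 regions higher, 22 to 33 WT-restricted and 14 to 27 K20R-restricted regions. By construction, fewer libraries need to agree in these counts, over the whole genome as well. Regions with K20R above WT numbered 59 of 131 without WT replicate 1, beside 41.7% of all common autosomal regions. Without WT replicate 2 they numbered 45 of 122, beside 31.8%. Without K20R replicate 1 they numbered 49 of 132, beside 30.8%, and without K20R replicate 2 they numbered 52 of 124, beside 42.7%. The fold difference of the stretch thus changed sign without K20R replicate 1, where it was −0.02. Over all common autosomal regions the median was −0.04 in that setting and 0.0 in the main one. Taking the same number of strongest peaks from each list gave 20 K20R-restricted and 12 WT-restricted regions, and leaving out K20R replicate 1 gave 26 and 22, so which genotype had more of them was not stable. These settings were not counted over the whole series. The cause of the other shifts was not tested. With a replicate block, K20R was above WT within both numbers in 43 of 120 regions, beside 32.7% of all common autosomal regions, and the median difference stayed 0.04. The labels do not tie replicate numbers across genotypes. The correlation of replicate deviations between genotypes was 0.24 for fold and 0.10 for pileup over 37692 regions. Merging at 100 bp moved no median beyond the spread between replicates. Counts in the stretch stayed the same except for K20R-restricted regions, 11 in place of 12. The depth of the libraries, and the peaks missing from the lists, limit what absence of a peak can show.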
